A study of Mus musculus with 10 samples.

Results

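The transcripts described here encode the mouse receptors for the constant part of IgG, Fcgr1, Fcgr2b, Fcgr3 and Fcgr4, and the common gamma chain Fcer1g. These 5 genes of the 19505 with a symbol on the arrays were taken by symbol from the deposited expression table, where each is read by a single probe set. All 5 passed the filter on low values, Fcgr4 through the arrays with oncogenic Vav1 and 1 of the GFP arrays. The family was chosen by measured values, the differences between oncogenic Vav1 and GFP, so these differences are given for its members as a description.

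Single-colour Affymetrix arrays measured total RNA extracted with Trizol. The labels name the cells CD4+ T cells of strain C57BL/10 that were wild type and carried either oncogenic Vav1, a mutated form of a guanine exchange factor that acts downstream of antigen receptors, or GFP, a fluorescent protein. The cells had been put into immunocompromised mice, and tissue was taken 6 months later. There were 4 oncogenic Vav1 spleen arrays from the animals ONCO1 to ONCO4, 2 GFP spleen arrays (CTL2 and CTL4), 2 oncogenic Vav1 lymph node arrays (ONCO2 and ONCO3) and 2 GFP lymph node arrays (CTL1 and CTL2). The 10 arrays come from 7 animals, and 3 of these gave both tissues. Which Vav1 mutation was used, what drives the construct, and which cells the host mice kept are not given in the sources used here.

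Cells use this family to read antibody bound to a target. In mice Fcgr1, Fcgr3 and Fcgr4 are activating receptors that need the common gamma chain for surface expression and for signalling, because the chain carries the ITAM, a tyrosine motif that recruits the kinase Syk once phosphorylated. Fcgr2b carries the opposite motif, an ITIM, and restrains activation by recruiting the phosphatase Inpp5d (SHIP1). Macrophages and monocytes carry the whole set, NK cells carry Fcgr3, and B cells carry Fcgr2b. This list of cells is not complete. Fcgr1 and Fcgr4 are known to respond to interferon gamma, and the family is not a usual feature of resting CD4+ T cells.

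Promoter sequences are shown for the 3 activating receptors, whose promoters hold matches to motifs of the interferon response or of the myeloid factor PU.1. All 3 were higher with oncogenic Vav1 in spleen. So was Fcer1g, which holds no match and is not shown, and no link between motif and change is read from this choice. The sequences come from RefSeq on GRCm38.p6 and run from 250 bases before to 50 after the annotated start, 5′ to 3′ on the strand of the gene. Capitals mark the matches. The Fcgr4 window is chr1:171018676-171018975 on the plus strand, the Fcgr1 window chr3:96293920-96294219 on the minus strand, and the window of the first of 2 annotated Fcgr3 starts chr1:171059354-171059653 on the minus strand.
Fcgr4: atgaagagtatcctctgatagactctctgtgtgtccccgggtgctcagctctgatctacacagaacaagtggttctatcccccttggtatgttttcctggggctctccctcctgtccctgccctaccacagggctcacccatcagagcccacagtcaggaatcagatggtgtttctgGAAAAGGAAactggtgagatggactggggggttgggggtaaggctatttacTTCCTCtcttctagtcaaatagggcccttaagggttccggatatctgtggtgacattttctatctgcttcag
Fcgr1: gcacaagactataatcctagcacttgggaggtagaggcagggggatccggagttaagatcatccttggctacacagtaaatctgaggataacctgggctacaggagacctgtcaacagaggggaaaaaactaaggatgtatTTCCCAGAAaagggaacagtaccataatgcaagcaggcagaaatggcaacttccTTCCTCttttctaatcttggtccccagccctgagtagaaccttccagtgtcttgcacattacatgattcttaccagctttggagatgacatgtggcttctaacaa
Fcgr3: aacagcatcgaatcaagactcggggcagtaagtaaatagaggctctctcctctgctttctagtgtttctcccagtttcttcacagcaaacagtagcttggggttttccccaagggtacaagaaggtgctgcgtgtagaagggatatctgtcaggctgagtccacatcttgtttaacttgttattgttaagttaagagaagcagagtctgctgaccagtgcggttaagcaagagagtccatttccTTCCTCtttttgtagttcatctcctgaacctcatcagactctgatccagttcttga

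The motifs searched on both strands were GAS (TTCNNNGAA, the gamma-activated site), ISRE (GAAANNGAA, bound by interferon regulatory factors) and the core GAGGAA of PU.1 sites. Fcgr1 held a GAS match that begins 109 bases before its start and a PU.1 core at 55 bases before it. The Fcgr4 window held an ISRE match beginning 73 bases before the start and a PU.1 core at 22 bases before it. In the Fcgr3 window shown, a PU.1 core lay 6 bases before the start. None of the motifs was in the Fcgr2b or Fcer1g window. Over 32544 mouse promoters of the same length, 8.33% held GAS, 8.53% ISRE and 28.1% the PU.1 core, so the last is common. A match describes these letters and does not show a bound site.

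The labelled cell type was checked against marker lists, given here as the mean log2 level of the genes of a list on each array. T cell markers (12 genes) lay between 7.86 and 9.52 on the 10 arrays and B cell markers (11 genes) between 9.31 and 10.98, so transcripts of both lineages were present in every sample. Macrophage and monocyte markers (20 genes) lay between 8.11 and 8.85. Lymph node replicate 2 of the oncogenic Vav1 group, from ONCO3, stood apart. Its erythroid markers (8 genes) averaged 10.87, against 8.59 on the other oncogenic Vav1 lymph node array and 6.33 and 6.21 on the GFP lymph node arrays. T cell markers averaged 7.86 there, against 8.94 on the other oncogenic Vav1 lymph node array, and the members and several of the lists are also given without it. Whether the RNA came from sorted CD4+ T cells or from whole tissue is not given in the sources used here, so it is not known which cells each receptor or marker value describes. In bulk RNA of either kind, fewer cells of a type and less RNA per cell cannot be told apart.

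The Vav1 transcript itself was measured as a check of the construct. It averaged 10.17 ± 0.13 on the log2 scale in oncogenic Vav1 spleens (SD, n = 4) and 9.73 ± 0.14 in GFP spleens (SD, n = 2). In lymph nodes it averaged 9.72 ± 0.64 with oncogenic Vav1 and 9.60 ± 0.12 with GFP (SD, n = 2 each). Neither difference passed the test (limma adjusted p = 0.14 in spleen and 0.80 in lymph node), and the labels do not say whether these probes read the construct. In spleen the lowest oncogenic Vav1 array (9.99) was above the highest GFP array (9.83), as for 30.3% of genes, and in lymph node the groups overlapped.

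Fcgr4, the activating receptor that binds IgG2a and IgG2b with intermediate affinity, differed most between constructs. Its log2 level in the oncogenic Vav1 spleens was 9.61, 9.54, 9.31 and 9.51, against 4.97 and 5.31 in GFP spleens. In lymph nodes it was 9.39 and 8.71 with oncogenic Vav1, against 5.31 and 6.23 with GFP. All 6 oncogenic Vav1 arrays were thus high and all 4 GFP arrays low, with no overlap in either tissue. Both GFP spleen arrays and GFP lymph node replicate 1 lay below the 40th percentile of their own array (5.64 to 5.84 over the arrays), a level here called near background, so the size of the fold depends on the background. The difference was 4.35 in spleen (standard error, SE, 0.26; 20.4-fold) and 3.28 in lymph node (SE 0.29; 9.73-fold).

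Fcgr1, the high-affinity IgG receptor of monocytes and macrophages, had levels of 8.02, 7.85, 7.64 and 7.96 in the oncogenic Vav1 spleens, against 7.03 and 6.74 in GFP spleens. The spleen groups did not overlap, and their difference was 0.98 (SE 0.17; 1.97-fold). In lymph nodes the levels were 7.87 and 7.37 with oncogenic Vav1, against 7.39 and 7.43 with GFP. Here only the array of ONCO2 was above the GFP arrays, and the difference of 0.21 (SE 0.20) was about its own standard error.

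Fcgr3, the low-affinity activating receptor shared by myeloid and NK cells, had levels of 11.02, 10.93, 10.49 and 10.84 in oncogenic Vav1 spleens, against 9.56 and 9.31 in GFP spleens. The lowest oncogenic Vav1 spleen array was well above the higher GFP one, and the difference was 1.39 (SE 0.30; 2.61-fold). In lymph nodes the levels were 10.96 and 9.62 with oncogenic Vav1, against 9.69 and 9.56 with GFP. One oncogenic Vav1 lymph node array was at the level of the oncogenic Vav1 spleens and the other at that of the GFP nodes, with a difference of 0.66 (SE 0.34).

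Fcer1g, the signalling chain shared by the activating receptors, had levels of 10.54, 10.40, 10.39 and 10.34 in oncogenic Vav1 spleens, against 9.09 and 8.73 in GFP spleens. These 4 arrays agreed closely (SD 0.088), and the difference was 1.51 (SE 0.24; 2.85-fold). In lymph nodes the levels were 10.47 and 9.39 with oncogenic Vav1, against 9.64 and 9.76 with GFP. The oncogenic Vav1 arrays lay on either side of the GFP arrays, and the difference was 0.23 (SE 0.28).

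Fcgr2b, the inhibitory receptor, had levels of 10.86, 10.74, 10.43 and 10.71 in oncogenic Vav1 spleens, against 10.05 and 10.04 in GFP spleens. The groups did not overlap, but the difference of 0.64 (SE 0.23; 1.56-fold) was the smallest of the family in spleen. In lymph nodes the levels were 10.75 and 9.75 with oncogenic Vav1, against 9.94 and 9.71 with GFP. The groups overlapped there, with a difference of 0.42 (SE 0.27).

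**Figure D1:**
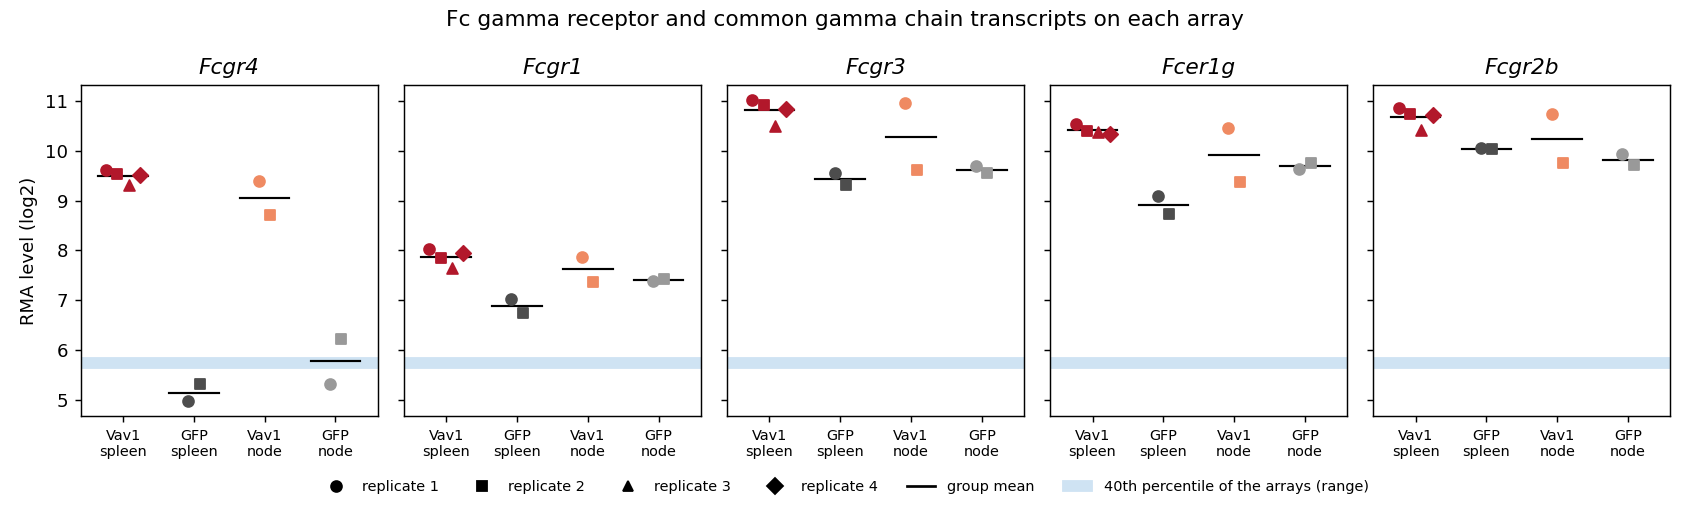
RMA level (log2, vertical axis) of each transcript on each of the 10 arrays, by construct and tissue; symbols give the replicate number, black lines the group mean, and the blue band the range of the arrays' 40th percentiles. Fcgr4 lay between 8.71 and 9.61 on the oncogenic Vav1 arrays and between 4.97 and 6.23 on the GFP arrays, while the other 4 transcripts were above the band on every array.

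Set against all genes, 4 of the 5 transcripts (Fcgr4, Fcer1g, Fcgr3 and Fcgr1) were higher past the threshold in spleen, an adjusted p under 0.05 in limma over all 13393 genes tested, where 17.1% of genes were higher. Every oncogenic Vav1 spleen array was above every GFP spleen array for all 5, as for 30.3% of genes. In lymph node, Fcgr4 was the 1 of the 5 past the threshold, where 7.87% of genes were higher. Fcgr4 was also the member whose lymph node arrays did not overlap, with 24.2% of genes higher on both oncogenic Vav1 arrays than on both GFP arrays. Because these contrasts chose the family, nothing is read from the counts.

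Some of these calls depended on single arrays or settings. In spleen, Fcgr3 missed the threshold without GFP spleen replicate 1 or replicate 2. With the median of the intronic control probe sets of each array as a covariate, Fcgr1 (0.65), Fcgr3 (0.47) and Fcer1g (0.90) missed it too. Those controls had medians between 5.43 and 5.55 on the oncogenic Vav1 spleen arrays and of 5.87 and 5.69 on the GFP spleen arrays, and their part in the result was not tested. Fcgr2b, which missed the threshold, passed in the spleen arrays alone, with array weights, with each array centred on its median (0.74), and without either oncogenic Vav1 lymph node array or ONCO3. The Fcgr4 calls held under all 22 alternatives in each tissue, with differences of 3.52 to 4.53 in spleen and 2.83 to 3.74 in lymph node.

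**Figure D2:**
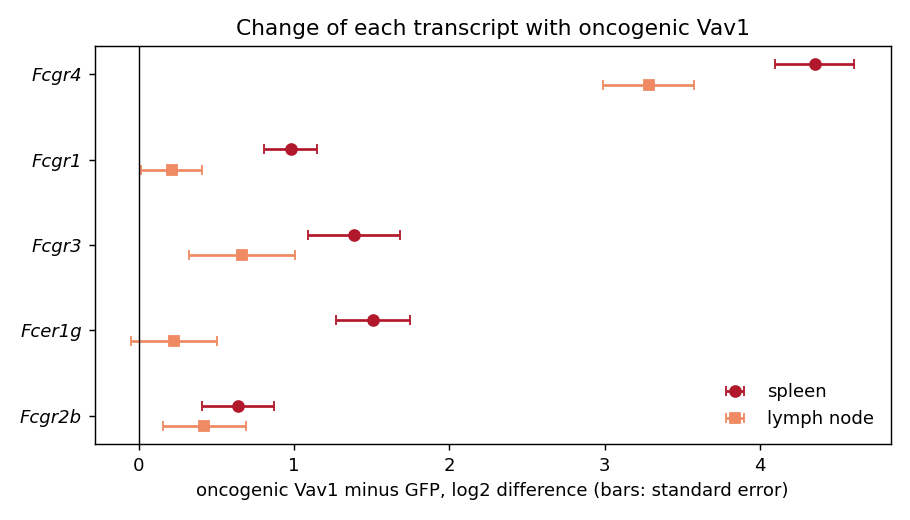
Difference between oncogenic Vav1 and GFP (log2, horizontal axis) for each transcript in spleen (circles) and lymph node (squares), with standard errors as bars. Fcgr4 stands at 4.35 and 3.28, and the other 4 lie between 0.64 and 1.51 in spleen and between 0.21 and 0.66 in lymph node.

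The 2 oncogenic Vav1 lymph nodes did not behave alike. Relative to the GFP lymph node mean, replicate 1 (ONCO2) was higher by 0.46 for Fcgr1, 0.92 for Fcgr2b, 1.33 for Fcgr3, 3.62 for Fcgr4 and 0.77 for Fcer1g. Replicate 2 (ONCO3) departed by -0.033 for Fcgr1, -0.076 for Fcgr2b, -0.0057 for Fcgr3 and -0.32 for Fcer1g, but by 2.94 for Fcgr4. Fcgr4 was thus high on an array on which the other 4 transcripts were at or below the GFP level. Without replicate 2, Fcgr2b (0.92), Fcgr3 (1.33) and Fcer1g (0.77) passed the threshold, in a fit where the single remaining array is assumed to vary as the other groups do. Without replicate 1, Fcgr4 alone of the 5 was higher in the nodes.

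The same animals allow a comparison of both tissues. In ONCO2 the 5 lymph node levels were within -0.15 and 0.07 of its spleen. In ONCO3 the lymph node was lower than the spleen for all 5, by -0.27 for Fcgr1, -0.60 for Fcgr4, -0.68 for Fcgr2b, -0.87 for Fcgr3 and -1.001 for Fcer1g. In the GFP animal CTL2 the lymph node exceeded the spleen by 1.26 for Fcgr4, 0.68 for Fcer1g and 0.39 for Fcgr1, with -0.001 for Fcgr3 and -0.34 for Fcgr2b. The ONCO3 spleen was also the lowest of the 4 oncogenic Vav1 spleens for every receptor, but not for Fcer1g.

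**Figure D3:**
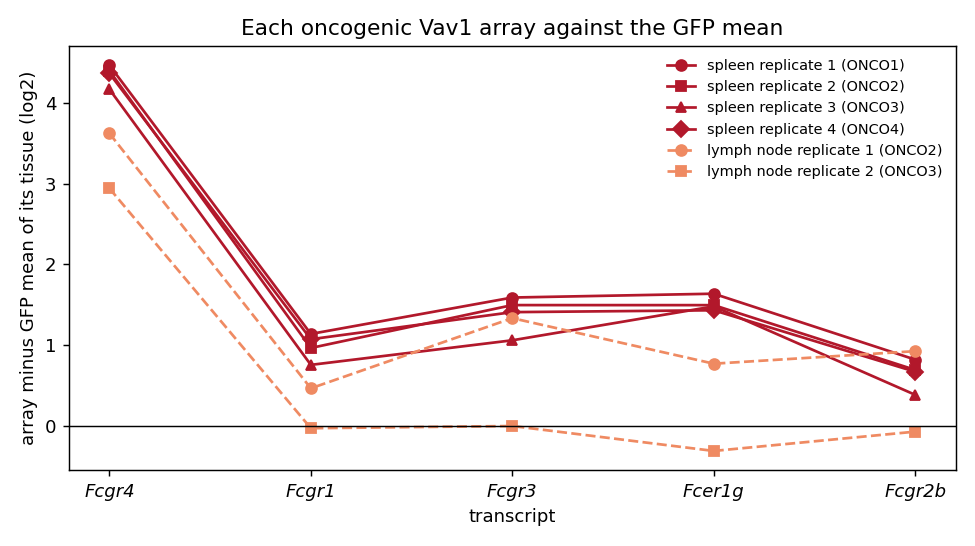
Level of each transcript on each oncogenic Vav1 array minus the GFP mean of the same tissue (log2, vertical axis), spleen as solid and lymph node as dashed lines. The 4 spleen lines run close together, and the lymph node line of ONCO3 stands at 2.94 for Fcgr4 and at -0.32 to -0.0057 for the other 4.

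The balance of activating to inhibitory receptor was described as the departure of a transcript minus that of Fcgr2b on the same array. In the 4 oncogenic Vav1 spleens it was 3.65 to 3.79 for Fcgr4, 0.76 to 1.10 for Fcer1g, 0.68 to 0.80 for Fcgr3 and 0.27 to 0.40 for Fcgr1. In the oncogenic Vav1 lymph nodes it was 2.70 and 3.02 for Fcgr4, 0.41 and 0.07 for Fcgr3, -0.46 and 0.04 for Fcgr1, and -0.16 and -0.24 for Fcer1g. These values set different probe sets side by side and rest on 1 mean of 2 GFP arrays per tissue, so they are a description and no order is read from them.

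Whether the construct effect differed between tissues was tested as an interaction, with the animal as a random block. It is built from the contrasts that chose the family, so the members' values are given as a description. Nothing is read from their signs or from how many of the 5 passed. The lymph node effect minus the spleen effect was -1.29 for Fcer1g (SE 0.38), -1.04 for Fcgr4 (SE 0.40), -0.79 for Fcgr1 (SE 0.27), -0.75 for Fcgr3 (SE 0.48) and -0.23 for Fcgr2b (SE 0.37). All 5 estimates were negative, and none of the 5 passed, with limma adjusted p of 0.065 for Fcer1g, 0.11 for Fcgr1, 0.14 for Fcgr4, 0.36 for Fcgr3 and 0.73 for Fcgr2b. Of all genes, 8.04% passed. The larger effect in spleen is therefore not shown to differ from that in lymph node, although 3 members (Fcer1g, Fcgr1 and Fcgr4) had an unadjusted p under 0.05. Fcer1g passed without oncogenic Vav1 lymph node replicate 1 (-1.81) or replicate 2 (-0.73), without ONCO3, with array weights and with centred arrays, and all 5 passed without replicate 1.

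Between tissues within a construct, no member passed either. In GFP animals the lymph node minus spleen difference was 0.80 for Fcer1g (limma adjusted p = 0.084), 0.59 for Fcgr4 (0.22), 0.53 for Fcgr1 (0.11), 0.20 for Fcgr3 (0.75) and -0.21 for Fcgr2b (0.65), where 16% of genes passed. Fcer1g and Fcgr1 passed there with array weights, and these 2 and Fcgr4 passed without either oncogenic Vav1 lymph node array or ONCO3, arrays that enter only through the pooled spread and the block. Fcgr2b (-1.17) and Fcgr3 (-1.05) passed as lower in the node with the intronic control covariate. In oncogenic Vav1 animals the difference lay between -0.55 (Fcgr3) and -0.26 (Fcgr1), with adjusted p between 0.53 and 0.59, where 0.0373% of genes passed. Fcgr2b, Fcgr3, Fcgr4 and Fcer1g passed as lower in the node without oncogenic Vav1 lymph node replicate 1. The order of Fcgr4 by group mean was oncogenic Vav1 spleen (9.49 ± 0.13), oncogenic Vav1 lymph node (9.05 ± 0.48), GFP lymph node (5.77 ± 0.65) and GFP spleen (5.14 ± 0.24; SD, n = 4, 2, 2 and 2), where the first 2 overlap and the last 2 overlap.

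The list of other antibody receptors, which includes Fc receptor-like genes, moved in both directions. Of 10 tested, 1 rose and 4 fell in spleen, with a median difference of -0.50 against 0.0019 over all genes, and 1 rose and 3 fell in lymph node, with a median of -0.27 against -0.015. Without GFP spleen replicate 1 the falls in spleen numbered 2, and without oncogenic Vav1 lymph node replicate 1 those in lymph node numbered 6. For this and the following lists, 17.1% of all genes rose and 9.77% fell in spleen, and 7.87% rose and 10.8% fell in lymph node. These shares are of the fit over all 10 arrays. With an array left out, the number of calls over all genes moved too, as given at the end. List counts with an array left out have no such share beside them. Nothing particular to a list is therefore read from how they change. Fcer2a (CD23), a B cell receptor for IgE, fell by 1.78 in spleen (SE 0.12) and fell by 1.44 in lymph node (SE 0.13). Fcgrt, the neonatal receptor that protects IgG from breakdown, averaged 7.99 in oncogenic Vav1 spleens and 7.11 in GFP spleens, a rise of 0.88 (SE 0.13). In lymph nodes it averaged 8.00 with oncogenic Vav1 and 8.91 with GFP, and fell by 0.92 (SE 0.15), so its direction was opposite in the 2 tissues. Of the antibody heavy and joining chain genes listed, Jchain, which links secreted IgM and IgA, was the 1 measured of 10, and the heavy chains were not analysed here. Jchain averaged 11.05 in oncogenic Vav1 nodes and 8.75 in GFP nodes, a rise of 2.29 (SE 0.30; limma adjusted p = 0.00055), while its spleen difference of 0.51 (SE 0.26) did not pass.

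Receptors that share the gamma chain were also mixed. Of 7 tested, 2 rose and 2 fell in spleen, and 1 rose and 2 fell in lymph node. Without GFP spleen replicate 1 none of the 7 passed in spleen. Clec4n (Dectin-2), a fungal receptor of myeloid cells, rose by 0.91 in spleen (SE 0.22) and differed by 0.29 in lymph node (SE 0.25). Its spleen call was lost without GFP spleen replicate 1. Ncr1 (NKp46), an activating receptor of NK cells, fell by 1.16 in spleen (SE 0.24) and fell by 2.10 in lymph node (SE 0.28), and missed the spleen threshold without either GFP spleen array. Gp6, the collagen receptor of platelets, rose by 1.92 in lymph node (SE 0.38), where it missed the threshold without GFP lymph node replicate 1. Its GFP lymph node mean of 4.09 was near background, so the size of the rise depends on the background. The oncogenic Vav1 spleen mean of Ncr1, 5.48, was near background too, so the size of its fall in spleen depends on the background.

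Downstream of the receptors, 5 of 28 adaptors, kinases and other ITAM signalling genes tested rose and 3 fell in spleen, and none rose and 3 fell in lymph node. Their medians were 0.034 in spleen and -0.074 in lymph node. These counts depended on single arrays. Without oncogenic Vav1 lymph node replicate 2, 9 rose and none fell in the node, without replicate 1 none rose and 13 fell, and without either GFP lymph node array none passed. In spleen a single gene of the list rose without either GFP array or without oncogenic Vav1 replicate 1. In spleen the kinase Tec fell by 1.05 (SE 0.12) and the kinase Btk fell by 0.75 (SE 0.11). Tyrobp, the sister adaptor of Fcer1g, Syk, and Inpp5d were picked for their role after their values were seen. Tyrobp rose by 0.87 in spleen (SE 0.26; adjusted p = 0.032 in limma), a call held in 11 of 22 alternatives and lost without any 1 of the spleen arrays or of the GFP lymph node arrays, and differed by -0.44 in lymph node (SE 0.30). Syk averaged 10.28 in oncogenic Vav1 spleens and 10.79 in GFP spleens, a difference of -0.51 (SE 0.19; adjusted p = 0.075), and differed by 0.42 in lymph node (SE 0.22). The Syk transcript was thus not higher in spleen, where 9 of 11 B cell markers fell. The part of B cells in the level of Syk was not tested. Fcer1g was chosen by its difference and Syk after its values were seen, so nothing is read from setting them side by side.

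On the inhibitory side, 8 of 23 ITIM receptors, phosphatases and adaptors tested rose and 3 fell in spleen, and 3 rose and 2 fell in lymph node. The ITIM receptor Pilra rose by 1.02 in spleen (SE 0.19) and by 1.30 in lymph node (SE 0.22), and missed the spleen threshold without GFP spleen replicate 2. Clec12a, an ITIM receptor of myeloid cells, rose by 1.56 in spleen (SE 0.18). The adaptor Dok2 fell by 1.55 in spleen (SE 0.16) and fell by 2.29 in lymph node (SE 0.18). Inpp5d, the phosphatase that Fcgr2b recruits, differed by -0.31 in spleen (SE 0.23; adjusted p = 0.33) and by -0.15 in lymph node (SE 0.27; adjusted p = 0.75), in limma. Without GFP spleen replicate 1 or 2, the rises of this list in spleen numbered 2 or 3. In lymph node 12 rose and 1 fell without oncogenic Vav1 replicate 2, and 2 rose and 10 fell without replicate 1.

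Of 23 genes of the interferon gamma response tested, 14 rose in spleen, 9 did not pass and none fell, with a median difference of 1.03. Without GFP spleen replicate 1 the rises numbered 5. In lymph node 3 rose and none fell, with a median of 0.35. Ifng itself, the cytokine, averaged 8.68 in oncogenic Vav1 spleens and 5.38 in GFP spleens, a rise of 3.30 (SE 0.48). It rose by 2.11 in lymph node (SE 0.56). The GFP means of Ifng, 5.38 in spleen and 5.56 in lymph node, were near background, so the size of both rises depends on the background. The chemokine Cxcl9 rose by 3.78 in spleen (SE 0.49), and the immunity-related GTPases Iigp1 and Igtp rose there by 3.46 (SE 0.46) and by 2.08 (SE 0.18). The lymph node calls were fewer and less stable, since Ifng missed the threshold without either GFP lymph node array and Igtp (0.98, SE 0.21) without GFP lymph node replicate 2.

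The oncogenic Vav1 lymph node arrays differed in this list, as they did for Fcgr1, Fcgr2b, Fcgr3 and Fcer1g, and as they did in other lists such as T cell markers. Its mean level was 9.99 on oncogenic Vav1 lymph node replicate 1 and 8.61 on replicate 2, against 8.81 and 8.79 on the GFP lymph node arrays. Without replicate 2, 19 of the 23 genes rose in lymph node and none fell. Without replicate 1, 2 rose and 9 fell. In spleen the list averaged 9.62 to 10.01 with oncogenic Vav1, against 8.45 and 8.56 with GFP, and leaving out GFP spleen replicate 2 left 9 rises. Whether the interferon genes and the receptors rest on the same cells was not tested.

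Of 7 complement receptor genes tested, 4 rose and 1 fell in spleen, and 2 rose in lymph node. Itgam, a subunit of complement receptor 3, rose by 1.67 in spleen (SE 0.25) and differed by 0.15 in lymph node (SE 0.29). Cr2, the complement receptor of B cells, fell by 1.94 in spleen (SE 0.20). Without GFP spleen replicate 1 or 2, a single complement receptor rose in spleen, and without either GFP lymph node array none passed in the node. None of 5 genes of the phagocyte oxidase, the enzyme that makes superoxide after uptake, passed in either tissue, with medians of 0.20 in spleen and 0.021 in lymph node. Without oncogenic Vav1 lymph node replicate 2, 3 of these 5 rose in the node, and without replicate 1, 4 fell.

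Of 10 transcription factors of myeloid cells tested, 2 rose and 1 fell in spleen and 1 fell in lymph node, shares close to those over all genes in spleen. Without oncogenic Vav1 lymph node replicate 1, 6 fell in the node, and without replicate 2, 2 rose and 1 fell. Nr1h3 (LXR alpha), a sterol-sensing receptor of macrophages, rose by 2.12 in spleen (SE 0.40). Cebpa, a factor of myeloid differentiation, averaged 7.52 in oncogenic Vav1 nodes and 9.34 in GFP nodes, and fell by 1.82 (SE 0.21). Spi1, which encodes PU.1 and was picked for the promoter motif after its values were seen, differed by 0.39 in spleen (SE 0.28) and by -0.41 in lymph node (SE 0.32). In both tissues its adjusted p in limma missed the threshold, at 0.31 in spleen and 0.43 in lymph node.

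**Figure D4:**
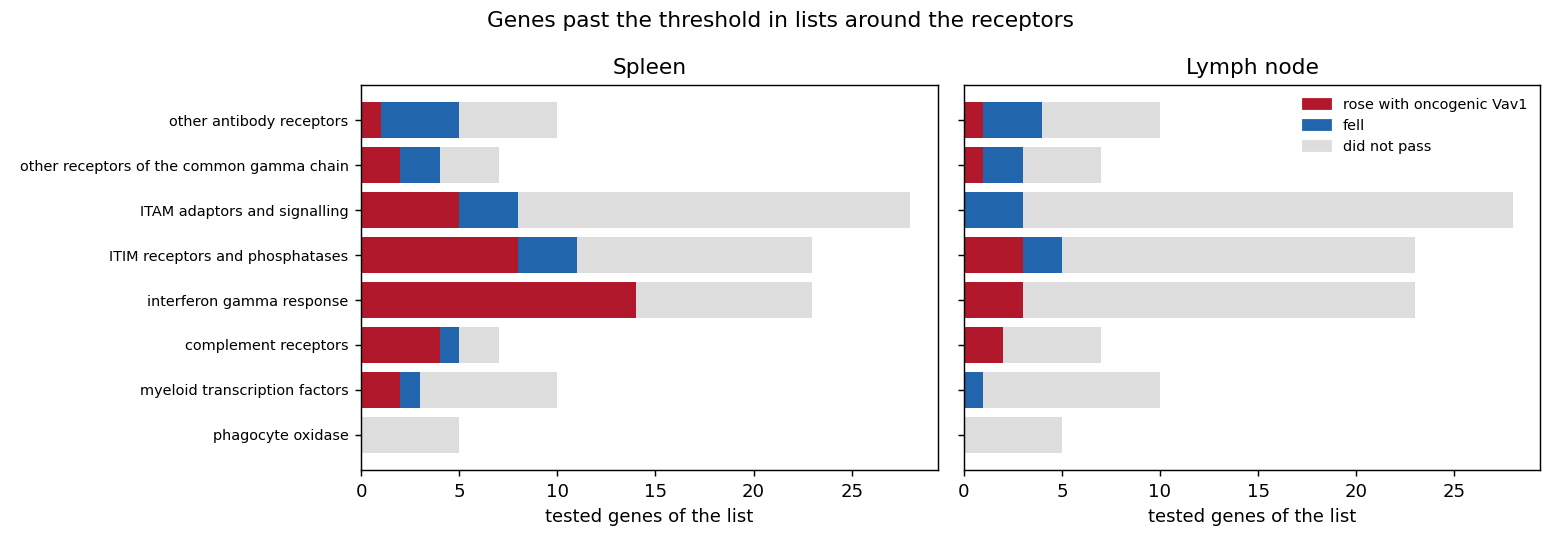
Number of tested genes (horizontal axis) in 8 lists around the receptors that rose (red), fell (blue) or did not pass the threshold (grey) with oncogenic Vav1, in spleen (left) and lymph node (right). The interferon gamma response has 14 rises of 23 genes in spleen and 3 in lymph node, and the phagocyte oxidase has none in either.

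Markers of the cells that carry these receptors moved with the construct as well. In spleen, 9 of 20 macrophage and monocyte markers rose and 2 fell, and their mean level was 8.64 to 8.85 with oncogenic Vav1, against 8.12 and 8.11 with GFP. The monocyte chemokine receptor Ccr2 rose by 1.40 (SE 0.12) and Ms4a7 by 1.80 (SE 0.22), whereas Timd4, a marker of resident macrophages, fell by 0.67 (SE 0.14), a call lost without GFP spleen replicate 1. In lymph node 2 rose and 3 fell, and the mean level was 8.67 and 8.43 with oncogenic Vav1, against 8.73 and 8.64 with GFP. Timd4 fell by 1.82 there (SE 0.16) and Siglec1, the sialoadhesin of sinus macrophages, fell by 2.01 (SE 0.27). Without oncogenic Vav1 lymph node replicate 2, 8 of the 20 rose and 5 fell there, and without replicate 1, 3 rose and 5 fell. The part of these cells in the level of Fcgr4 was not tested.

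Neutrophil markers were higher in both tissues. Of 14 tested, 12 rose in spleen and 11 in lymph node and none fell, with medians of 2.74 and 2.57. Some were near background with GFP, such as Mmp8 (4.56 in lymph node, 4.44 in spleen), Mpo (4.91, 5.38) and Camp (5.13, 5.40). Such genes can hardly fall, so nothing is read from the absence of falls, and the size of their rises depends on the background. The granule genes S100a9 (3.66 in spleen, SE 0.15; 3.32 in lymph node, SE 0.17) and Ngp (4.22, SE 0.18; 3.85, SE 0.21) had differences near those of Fcgr4. The list averaged 8.77 and 8.34 on the oncogenic Vav1 lymph node arrays, against 6.32 and 6.46 on the GFP ones, and so, like Fcgr4, was high on both. Without oncogenic Vav1 lymph node replicate 1, 11 of the 14 still rose, and without replicate 2, 13 did. The part of neutrophils in the level of Fcgr4 was not tested.

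Other lineages moved in other ways. B cell markers, of cells that carry Fcgr2b, fell in 9 of 11 in spleen, where they averaged 9.67 to 10.00 with oncogenic Vav1 and 10.98 and 10.92 with GFP, while Fcgr2b was not lower. In lymph node 2 of 11 fell, and 7 without oncogenic Vav1 replicate 1. Of 8 NK cell markers, 2 rose and 2 fell in spleen and 3 fell in lymph node. The 2 falls in spleen are of the same genes as those among the receptors that share the gamma chain. Some other lists share genes too, so their counts are not separate observations. Without either GFP spleen array no NK cell marker fell in spleen, and without GFP lymph node replicate 1, 1 fell in the node. Dendritic cell markers rose in 2 and fell in 3 of 10 in spleen, and fell in 5 in lymph node, or in 3 without GFP lymph node replicate 1. Mast cell and basophil markers rose in 2 of 5 in spleen, or in 1 without either GFP spleen array, and rose in 1 and fell in 1 in lymph node. T cell markers rose in 2 of 12 in spleen, and in none without either GFP spleen array. In lymph node 6 of them fell, 12 without oncogenic Vav1 replicate 1, and 3 or 2 without GFP replicate 1 or 2. Erythroid markers passed in none of 8 in spleen and rose in all 8 in lymph node, in 6 without oncogenic Vav1 replicate 2, and in 5 or 4 without GFP replicate 1 or 2. In GFP lymph nodes the erythroid genes Rhag (4.34), Epb42 (5.07) and Ermap (5.57) averaged near background, so the size of their rises depends on it. The median erythroid difference in spleen was 1.18, so the lack of calls there is not read as no change. The part of any of these lists in the receptor levels was not tested.

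**Figure D5:**
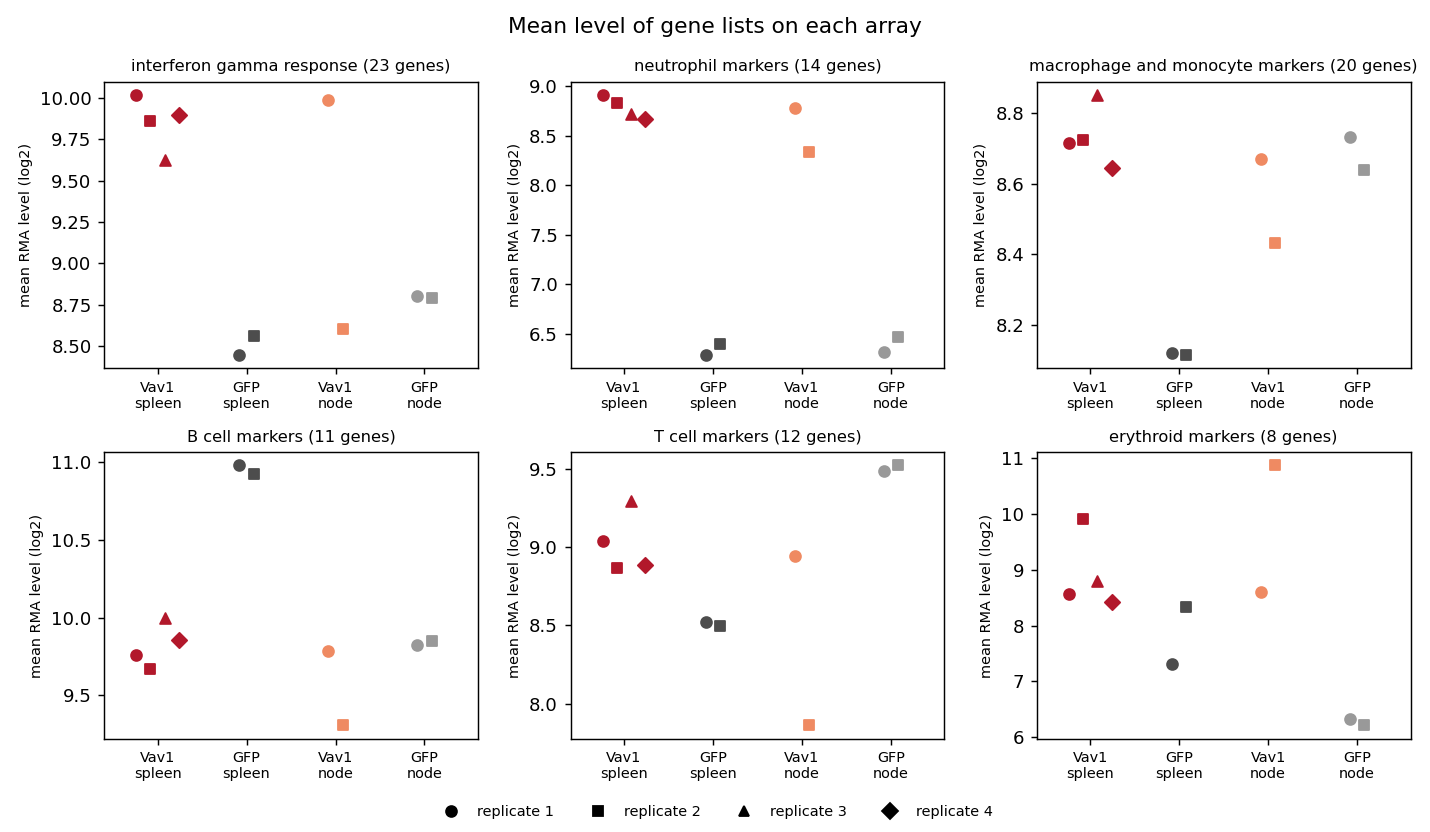
Mean RMA level (log2, vertical axes, each panel on its own scale) of 6 gene lists on each array, by construct and tissue, with symbols for the replicate number. Neutrophil markers were at 8.34 to 8.91 on the oncogenic Vav1 arrays and 6.28 to 6.46 on the GFP arrays, and interferon gamma genes were at 8.61 on oncogenic Vav1 lymph node replicate 2, the level of the GFP arrays.

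Over the 10 arrays, the members correlated with each other at Pearson r of 0.73 (Fcgr2b with Fcgr4) to 0.97 (Fcgr1 with Fcer1g). Such values are a description of arrays that share construct, tissue and, for some, the animal. The tested genes were ranked by likeness to each member, with predicted genes, gene segments and small RNA genes left out. The patterns most like Fcgr4 were then those of Creld2 (r = 0.99), Pes1 (0.99) and Ltf (0.99). Creld2 encodes a protein of the endoplasmic reticulum, Pes1 a ribosome assembly factor and Ltf the neutrophil granule protein lactoferrin. Those most like Fcgr3 were Mapkapk3, Bcl3 and Slamf8 (each 0.99). For Fcer1g they were Glrx (0.99), Ywhae (0.99) and Sec61a1 (0.98), for Fcgr1 Bmpr1a (0.99), Chst1 (0.98) and Acp2 (0.98), and for Fcgr2b the myeloid kinase Fgr (0.99), Vmn2r96 (0.98) and Atp6v0b (0.98). Of the genes ranked, none was among the 3 most alike for more than 1 member.

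Fcgr2b, Fcgr3, Fcgr4 and Fcer1g lie on chromosome 1, and Fcgr1 lies on chromosome 3. RefSeq places 38 other annotated genes between Fcgr2b and Fcer1g, many of them for transfer RNAs, and 6 of these were on the arrays with a symbol. In spleen, Cfap126 (1.41) and Sdhc (0.50) rose and Nr1i3 fell by 0.60, and the other 3 did not pass. In lymph node none of the 6 passed. Over all genes, 17.1% rose and 9.77% fell in spleen, and 7.87% rose and 10.8% fell in lymph node. Fcgr2b, Fcgr3 and Fcer1g did not pass in lymph node either. Because its differences chose the family, nothing is read from setting Fcgr4 against these 6.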

How the data were processed

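Per the submitters' processing notes, the deposited log2 values were computed by the authors with RMA in R 3.6.3, a method that corrects background, equalises the distributions of the arrays and summarises each probe set. They were used as deposited. Annotation version and genome build are not given in the sources used here. Arrays have no read depth, so their number limits precision. Of 29129 probe sets, 19572 had 1 symbol and covered 19505 genes. For 55 genes with several probe sets the brightest on average was kept. Testing needed a value past the 40th percentile of the array on 2 or more arrays, which left out 6112 genes and kept 13393.

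A model of the 4 groups was fitted over all 10 arrays with limma 3.58.1 (eBayes, variance trend, two-sided, Benjamini-Hochberg adjusted p under 0.05) in R 4.3.3, after a test on simulated data. The interaction and tissue comparisons had the animal as a random block (statmod 1.5.0; block correlation -0.11). Replicates are separate animals per the labels.

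The members, gene lists and tests were chosen with earlier results of these data known. The rule for named genes took the 5 members, Vav1, measured antibody chain genes, and up to 4 genes per list with the smallest p in each construct comparison. It also took the 3 genes most correlated with each member, with predicted genes, gene segments and small RNA genes left out. Tyrobp, Syk, Inpp5d and Spi1 are exceptions, and the 6 measured neighbours on chromosome 1 were taken by position. Alternatives changed the filter, scaling, variance model, probe set summary, samples, covariate and block, and left out each array or the animal ONCO3. List counts with arrays left out were added after the data were seen.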

Additional observations from a re-analysis of the deposited data

Results flagged for a closer look

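The construct effect differed between tissues, by the interaction test in limma with the animal as a random block, for 9 of the genes named beside the receptors. All but Jchain were named for a small p in a construct comparison on these same arrays, which favours such calls. Over all genes 8.04% passed this test, and nothing is read from the count of 9. The lymph node effect minus the spleen effect was positive for Cr2 (1.87, adjusted p = 0.0057), Jchain (1.81, adjusted p = 0.023) and Btk (1.02, adjusted p = 0.0052). It was negative for Cebpa (-2.18, adjusted p = 0.0015), Fcgrt (-1.80, adjusted p = 0.00061), Ccr2 (-1.77, adjusted p = 0.00047), Itgam (-1.51, adjusted p = 0.046), Timd4 (-1.16, adjusted p = 0.0087) and Igtp (-1.11, adjusted p = 0.044). The calls of Itgam and Igtp held in 10 of 21 alternatives and that of Jchain in 14. All 3 were lost without either GFP spleen array, either GFP lymph node array, or oncogenic Vav1 spleen replicate 1 or 4, and those of Itgam and Igtp also without replicate 3. Timd4 was lost without GFP lymph node replicate 1, and the other 5 calls held under all 21. Among the 4 oncogenic Vav1 spleen arrays, the lowest Clec12a level, 8.89, lay far from the other 3, with a gap of 0.843 of the whole range. Chance flags about 1 in 20 groups in this way.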

How the results depend on the processing

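The number of genes past the threshold depended on the arrays in the fit. In spleen it was 3596, against 916 with the intronic control covariate, 1089 to 5520 with 1 array left out and 5849 without ONCO3. In lymph node it was 2500, against 1264 with array weights, 433 in the lymph node arrays alone and 1040 to 4650 with 1 array left out. For the interaction it was 1077, against 384 to 4201 with 1 array left out and 2726 without ONCO3. For GFP lymph node minus spleen it was 2144, against 3879 with array weights, 863 to 4280 with 1 array left out and 4705 without ONCO3. For oncogenic Vav1 lymph node minus spleen it was 5, against 13 with no filter, 3 in those arrays alone, 94 with the covariate, 9 with no animal block, 3 to 3812 with 1 array left out and 41 without ONCO3. The cause was not tested, and fits on fewer arrays also have fewer degrees of freedom. Higher genes made up 63.6% of calls in spleen, 79.8% with each array centred on its median and 45.7% with renewed quantile normalization. For GFP lymph node minus spleen they were 72.5%, 84.0% and 53.8%, and for the interaction 11.6% and, with renewed quantile normalization, 28.0%. Centring moved the median of all genes to 0.11 in spleen and -0.13 in the interaction.

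A replicate block gave 2674 calls in spleen, 2128 in lymph node, 834 for the interaction and 2015 for GFP lymph node minus spleen. For oncogenic Vav1 lymph node minus spleen limma with that block gave 0 calls, with 870 genes at an unadjusted p under 0.05. Same-numbered arrays of the 2 constructs come from different animals, and their deviations correlated at 0.041 and 0.30 in spleen and -0.063 in lymph node, so the numbers were not read as pairs. The block changed no member's call. The GFP arrays alone could not be fitted with the animal block.

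Among the members and other named genes, signs turned as follows. Leaving out 1 array moved the lymph node difference between -0.033 and 0.46 for Fcgr1, -0.076 and 0.92 for Fcgr2b, -0.0057 and 1.33 for Fcgr3, and -0.32 and 0.77 for Fcer1g. It moved between -0.34 and 0.56 for Vav1, -0.40 and 0.70 for Itgam, -0.61 and 1.33 for Nr1h3, and -0.016 and 0.85 for Syk. In these 8 genes the lowest value came without oncogenic Vav1 lymph node replicate 1 and the highest without replicate 2. The range was -1.06 to 0.18 for Tyrobp, -0.69 to 0.39 for Inpp5d and -1.10 to 0.28 for Spi1, with the highest value without replicate 2 or ONCO3. For Clec4n it was -0.15, without replicate 2 or ONCO3, to 0.73. Oncogenic Vav1 lymph node minus spleen ran from -0.47 to 0.0034 for Fcgr1, -0.91 to 0.057 for Fcgr2b, -1.16 to 0.12 for Fcgr3 and -1.03 to 0.052 for Fcer1g, positive without replicate 2. Without ONCO3 it was 0.026 for Fcgr3 and 0.043 for Fcer1g. The Fcgr2b interaction ran from -0.68 to 0.29 and was 0.21 without ONCO3. With the intronic control covariate the spleen difference was -0.10 for Fcgr2b, -0.27 for Vav1, -0.0075 for Hcst, -0.17 for Cebpa and -0.46 for Spi1. The covariate gave an interaction of 0.60 for Fcgr2b and 0.35 for Fcgr3, and a GFP lymph node minus spleen difference of -1.05 for Fcgr3 and -0.30 for Fcgr4. The spleen difference of Hcst, an adaptor of the ITAM list that fell by 0.99 in lymph node, was 0.07, against -0.055 with the replicate block and -0.094, without oncogenic Vav1 spleen replicate 3 or ONCO3, to 0.15 with 1 array left out. The direction of Fcgr4 between constructs held in both tissues under every alternative run.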
